A study of Mus musculus with 9 samples.

Results

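Integrins, selectins and their partners were described here as 37 genes chosen by symbol, all of which were found among the 21936 genes of one liver expression table. By role they were 7 chains of leukocyte integrins, 4 collagen-binding alpha chains, 4 laminin-binding chains, 8 chains that are widely shared or bind the RGD sequence, 2 platelet chains, 4 adhesion molecules of the immunoglobulin family, 3 genes of the selectin system and 5 talins and kindlins. The rule for members was gene function, with no cutoff on a measured value, but it was set with earlier results of these data known, so counts of members are descriptions beside the share of all genes. Of the 37, 34 reached 0.1 FPKM, the number of sequenced fragments scaled for exon length and library depth, in 3 of the 9 livers or more and entered the tests, as did 13817 genes in all. The other 3, Itga11, Itgb6 and Itgb8, stayed at 0.16 FPKM or lower in every liver.

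Liver RNA of male wild-type C57BL/6 mice was sequenced in 3 groups of 3, with 1 library for each mouse. The mice were 9 weeks old at purchase and were kept for 1 week of adaptive feeding and 4 weeks of diet with daily gavage. The MCS group ate a methionine- and choline-sufficient diet and the MCD group a methionine- and choline-deficient diet, and both were gavaged with the vehicle, 0.5% CMC-Na (sodium carboxymethylcellulose). The HGPP group ate the deficient diet and received polysaccharides of the climbing plant Gynostemma pentaphyllum at 300 mg/kg in the same vehicle, so that MCD and HGPP share the diet and all groups share the gavage. The deficient diet impairs the export of fat from hepatocytes and is used as a model of steatohepatitis, without the obesity that often goes with the human disease. The right lobe was used, and each library is whole liver, so hepatocytes give most of the RNA. Because the RNA is from bulk tissue, fewer cells of a type and less RNA per cell cannot be told apart in any value below.

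An integrin is a pair of 1 alpha and 1 beta chain in the cell membrane that holds a cell to the matrix or to another cell. Talins and kindlins bind the tail of the beta chain inside the cell and switch the pair to its active form. White blood cells in the blood are first slowed by selectins on the vessel wall, then arrested when their integrins bind ICAM and VCAM molecules of the endothelium. In the liver much of this takes place in the sinusoids, where integrins and VCAM-1 carry a larger part than selectins do.

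Fragments behind the FPKM values numbered 14964993 to 18902846 per library in MCS, 11492654 to 16702367 in MCD and 13355282 to 15691032 in HGPP. The summed FPKM of 6 hepatocyte markers was 59240 to 74630 in MCS, 28031 to 59084 in MCD and 42852 to 50805 in HGPP, so both groups on the deficient diet lay below MCS. In each, 1 of the 6 was lower at the adjusted p, beside 2.55% and 2.48% of all genes. The sum of 8 mitochondrial transcripts was 34848 to 57576 in MCS, 48312 to 131510 in MCD and 43478 to 52092 in HGPP, with a median log2 fold change of 1.10 in MCD against MCS and -0.81 in HGPP against MCD, and its part in the results was not tested. Leukocyte markers differed too. Ptprc, the common leukocyte antigen CD45, ranged over 0.350 to 0.419 FPKM in the MCS livers, 1.38 to 3.11 in the MCD livers and 0.658 to 1.21 in the HGPP livers. MCD replicate 1 was the lowest of its group for most leukocyte genes, and results that rest on it are given below with and without it. The median of all tested genes lay 0.40 above MCS in MCD and 0.33 above MCS in HGPP on the log2 scale, and median-of-ratios scaling brought these shifts to 0.02 and 0.01. Fold changes below are on the log2(FPKM + 0.1) scale, which understates the change of low genes, and adjusted p-values are from limma with Benjamini-Hochberg adjustment over all 13817 genes. Both comparisons with MCS share its 3 livers, and both comparisons that involve MCD share its livers.

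On the deficient diet 15 of the 34 tested members rose at an adjusted p under 0.05 and 0 fell, where 19.6% of all tested genes rose and 2.55% fell. Those that rose were Itgax, Itgam, Itgb2, Itgb7, Itgal and Itga4 among the leukocyte integrin chains, Vcam1, Icam1 and Icam2 among the vascular molecules, Selplg and Sele of the selectin system, Fermt3 and Tln1 of the activators, and Itga2 and Itga6 among the matrix-binding chains. The median log2 fold change of the 34 was 0.93, beside 0.40 for all genes. Itga2 and Sele were under 0.1 FPKM in every MCS liver and were tested only because of the other groups, so these 2 could scarcely have come out any other way. With median-of-ratios scaling 8 members passed, and with quantile normalization 4. At an unadjusted p under 0.05 there were 20 members, where 38.1% of all genes passed. The livers of MCD lay wholly above those of MCS for 24 members and wholly below for 0, beside 38.1% and 5.08% of all genes. At the study's thresholds, which ask for a fold change over 2 in either direction and an unadjusted p under 0.05, 15 members were higher and 0 lower, beside 19.3% and 1.95%.

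Between HGPP and MCD 0 of the 34 members passed the adjusted p in limma, 11 had an unadjusted p under 0.05 (13.7% of all genes), and limma's voom on recovered reads, chosen after the data were seen, also called 0. At the study's thresholds 6 members were lower in HGPP and 0 higher, where 5.17% of all genes were lower and 0.919% higher. The 6 that were lower were Itgam, Itgax, Itgb2, Fermt3, Itgb7 and Selplg. The livers did not overlap for 10 members that were lower and 0 that were higher in HGPP, beside 11.3% and 5.83% of all genes. Among the 10 was Itga2, which passed the filter on low values through its MCD livers. The median of the 34 was -0.18, beside -0.07 for all genes. Without MCD replicate 1, Itgb2, Itgam, Itgax, Itgal, Selplg and Fermt3 passed the adjusted p and 9 members passed the study's thresholds, with 499 genes in all past the adjusted p against 3, or 0.0217%, with every liver. With any other 1 library left out, 0 members passed the adjusted p.

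Compared with MCS, the HGPP livers had 10 members higher at the adjusted p and 0 lower, where 16.4% of all genes were higher and 2.48% lower. They were Vcam1, Itgax, Itgb2, Itgam, Fermt3, Itga6, Fermt1, Itga9, Itga3 and Itgb5. At the study's thresholds 10 were higher and 0 lower (10.9% and 1.48% of all genes), at an unadjusted p under 0.05 there were 17 (36%), and 20 lay wholly above MCS and 0 wholly below (36.7% and 4.87%). The median log2 fold change of the 34 was 0.70, beside 0.33 for all genes. With median-of-ratios scaling 4 of the members passed, with quantile normalization 2, and without MCS replicate 2 there were 5.

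**Figure D1:**
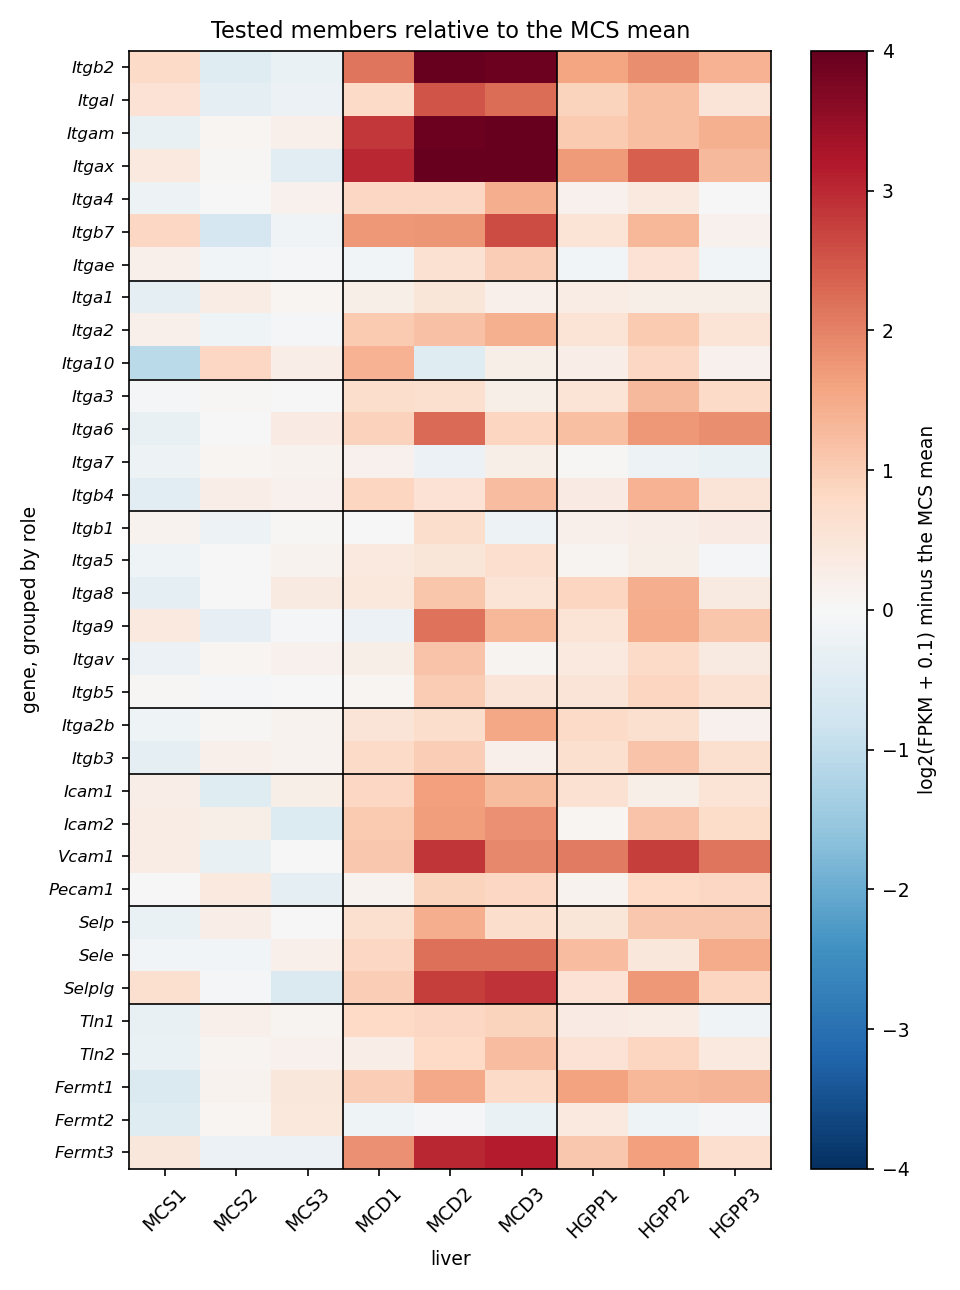
Each row is a tested member, grouped by role with black lines between the groups, and each column is 1 liver; color gives log2(FPKM + 0.1) minus the mean of the 3 MCS livers, and the scale ends at 4, so that Itgb2, Itgam and Itgax reach its end in MCD. Itgb2, Itgal, Itgam, Itgax, Selplg and Fermt3 are darkest in MCD replicates 2 and 3, while Vcam1 is as dark in HGPP as in MCD.

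The beta2 chain Itgb2 (CD18), at chr10:77530252-77565708 on the plus strand of GRCm38, is carried only by leukocytes and among the members pairs with Itgal, Itgam or Itgax. Its FPKM was 3.29, 1.32 and 1.58 in MCS replicates 1 to 3, 8.67, 43.5 and 30.3 in MCD, and 5.94, 7.16 and 5.14 in HGPP. All MCD livers lay above all HGPP livers, and these lay above all MCS livers. Itgb2 rose 11.3-fold in MCD (log2 fold change 3.50 ± 0.54 SE, adjusted p = 0.00315 in limma) and was 3.05-fold higher in HGPP than in MCS (log2 1.61 ± 0.32, adjusted p = 0.0114). The second call was lost without the low-value filter, under median-of-ratios or quantile scaling and in one fit over 9 libraries, with adjusted p-values up to 0.0631. HGPP against MCD gave -1.89 ± 0.50 on the log2 scale (unadjusted p = 0.00364, adjusted p = 0.204 in limma), and without MCD replicate 1 it gave -2.57 with an adjusted p of 0.00179, the lowest of the 17 alternatives, whose highest was 0.722.

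Itgax (CD11c, chr7:128129547-128150657, plus strand) marks dendritic cells and many macrophages, and it had the highest fitted log2 fold change of the tested members in MCD against MCS. It was at 0.606, 0.453 and 0.306 FPKM in MCS, 4.29, 15.5 and 13.2 in MCD, and 1.67, 2.73 and 1.22 in HGPP. Again the 3 groups did not overlap in any pair. The rise in MCD was 17.9-fold (log2 4.16 ± 0.45 SE, adjusted p = 0.000971 in limma), and HGPP was 3.47-fold above MCS (log2 1.79 ± 0.34, adjusted p = 0.0101). HGPP lay 5.17-fold below MCD (log2 -2.37 ± 0.47, unadjusted p = 0.00056, adjusted p = 0.138). Without MCD replicate 1 that adjusted p was 0.00251, and over all 17 alternatives it ran up to 0.608.

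Itgam (CD11b), the chain of the complement receptor CR3 on monocytes and neutrophils, lies next to Itgax on chromosome 7 (chr7:128062640-128118491, plus strand). Its FPKM was 0.0632, 0.115 and 0.133 in MCS, 1.33, 2.96 and 3.25 in MCD, and 0.313, 0.367 and 0.444 in HGPP. These values stood for 6 to 10 reads per liver in MCS, 77 to 248 in MCD and 21 to 35 in HGPP, and no 2 groups overlapped. Itgam rose 12.2-fold in MCD (log2 3.60 ± 0.39 SE, adjusted p = 0.000905 in limma). HGPP against MCD was -2.38 ± 0.36 (5.19-fold lower, unadjusted p = 7.91e-05, adjusted p = 0.0728), which was nearest to the adjusted threshold among the members. It passed in one fit over 9 libraries (adjusted p = 0.034) and without MCD replicate 1 (0.00251), while the highest adjusted p of the 17 alternatives was 0.430, without HGPP replicate 3. Against MCS the HGPP livers were 2.34-fold higher (log2 1.23 ± 0.30, adjusted p = 0.0232), a call that was lost without MCS replicate 1 (adjusted p = 0.0577), MCS replicate 2 (0.0656), HGPP replicate 2 (0.0592) or HGPP replicate 3 (0.065), with a filter at 1 FPKM and under median-of-ratios and quantile scaling. Of the 5024 exon bases of Itgam, 3450 (68.7%) are shared with Gm49368, a gene model on the same strand that was listed at 0 in every library, so the level of Itgam relative to other chains is uncertain.

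Itgal (CD11a), the alpha chain of the lymphocyte integrin LFA-1, differed less. It was at 1.78, 0.896 and 0.987 FPKM in MCS, 2.05, 7.20 and 5.92 in MCD, and 2.23, 2.83 and 1.73 in HGPP. MCD replicate 1 lay within the HGPP range, and the HGPP and MCS livers overlapped too. Itgal rose 3.60-fold in MCD (log2 1.85 ± 0.45 SE, adjusted p = 0.0185 in limma). The call was lost without MCD replicate 2 (adjusted p = 0.057), MCD replicate 3 (0.0755), MCS replicate 2 (0.0512) or MCS replicate 3 (0.0706). It was also lost without the low-value filter and under median-of-ratios and quantile scaling, with adjusted p-values up to 0.106. HGPP against MCD gave -0.97 (95% interval -1.93 to -0.01, adjusted p = 0.361), and -1.51 with an adjusted p of 0.0179 without MCD replicate 1. That adjusted p was the lowest of the 17 alternatives, whose highest was 0.836.

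**Figure D2:**
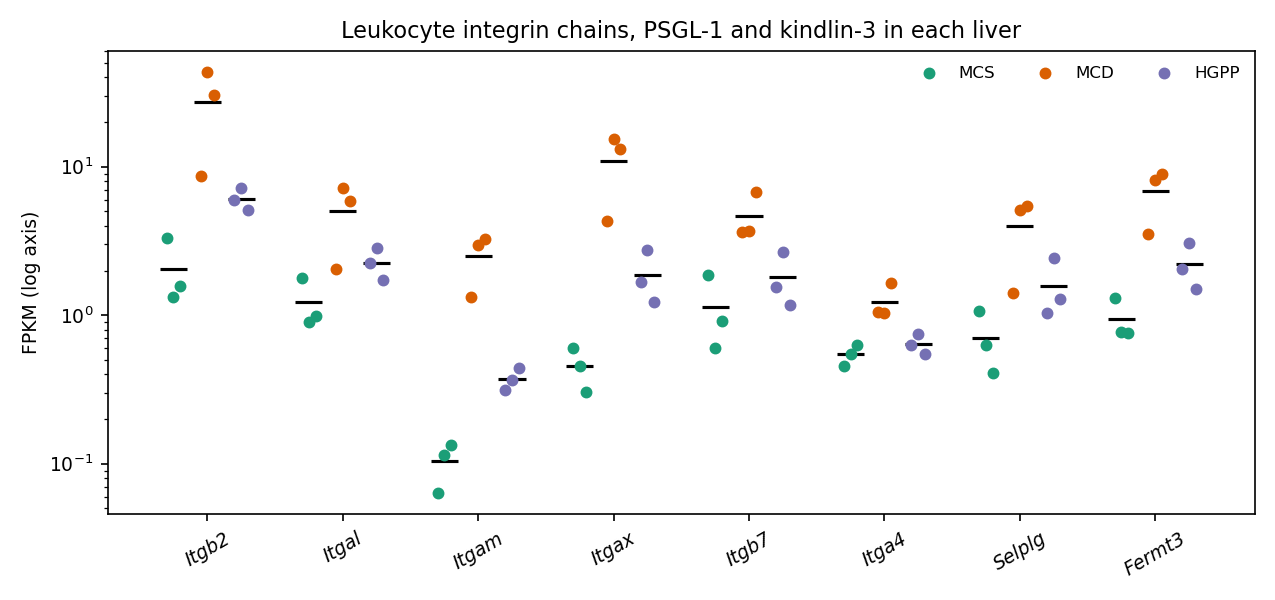
Points give the FPKM of 1 liver each on a log axis for 6 leukocyte integrin chains, Selplg and Fermt3, and black bars give the mean of the 3 livers of a group. For Itgb2, Itgam, Itgax, Itgb7, Itga4 and Fermt3 all MCD points lie above all HGPP points, while for Itgal and Selplg the lowest MCD point lies among those of HGPP.

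Because these 3 alpha chains compete for the same beta2 chain, their shares of their own summed FPKM were compared within each liver, where library scaling cancels. Alpha chains that are no members were left out of the sum. Itgax made up 24.7%, 30.9% and 21.5% in MCS, 55.9%, 60.4% and 59.1% in MCD and 39.6%, 46.1% and 36.0% in HGPP. On average the share was 25.7 ± 4.81% (SD, n = 3) in MCS, 58.5 ± 2.30% in MCD and 40.5 ± 5.11% in HGPP, with no overlap between any 2 groups (exact permutation test, two-sided p = 0.1 in each comparison, the smallest that 3 against 3 allows). The share of Itgal went the other way, with 67.7 ± 5.87% in MCS, 27.1 ± 0.893% in MCD and 50.5 ± 2.66% in HGPP and again no overlap. As the 3 shares make up a whole and Itgam held 6.58%, 14.5% and 8.9% on average, this is no result apart from the Itgax share. MCD replicate 1, which was low for each of these genes, had 26.7% Itgal against 28.1% and 26.4% in the other MCD livers. When the Itgam value was instead taken per exon base not shared with Gm49368, an alternative chosen after the data were seen, the Itgax share was 22.6%, 44.5% and 34.2% in MCS, MCD and HGPP, and the HGPP and MCD livers then overlapped (exact permutation test, two-sided p = 0.2).

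**Figure D3:**
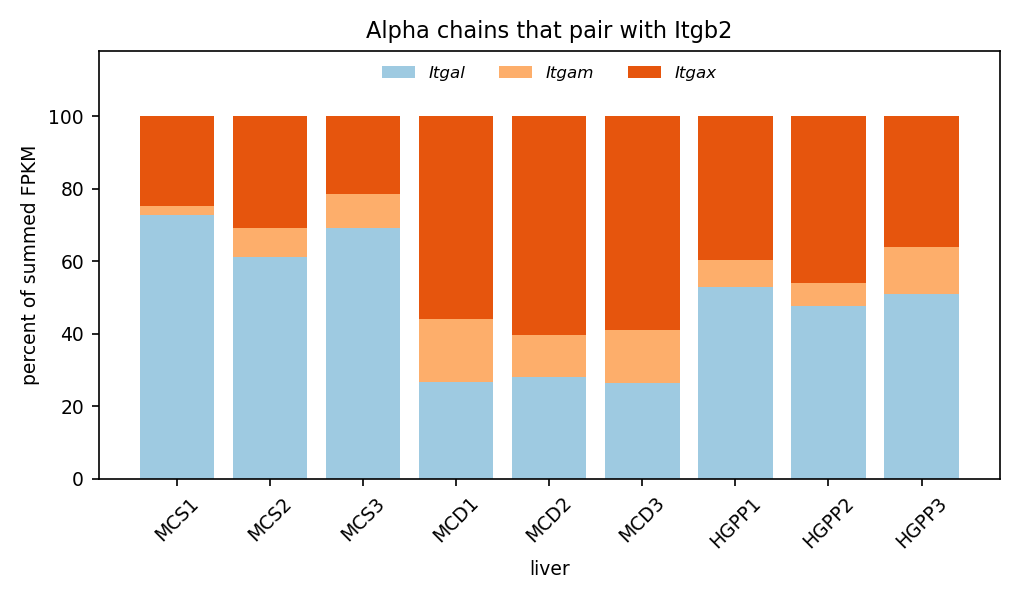
Each bar is 1 liver and splits the summed FPKM of Itgal, Itgam and Itgax into percent. Itgal is the largest part in all MCS and HGPP livers (47.7% to 72.7%) and Itgax in all MCD livers (55.9% to 60.4%).

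Relative to Ptprc the chains differed in how far they moved. The log2 ratio of Itgb2 to Ptprc was 2.31 ± 0.74 (SD, n = 3) in MCS, 3.27 ± 0.61 in MCD and 2.70 ± 0.23 in HGPP, and each pair of groups overlapped (exact permutation test, two-sided p = 0.2 for MCD against MCS and for HGPP against MCD, 0.5 for HGPP against MCS). Itgax per Ptprc was 0.19 ± 0.44, 2.03 ± 0.38 and 0.93 ± 0.22 on the log2 scale, without overlap in any pair (exact permutation test, two-sided p = 0.1 each). Itgam per Ptprc was nearly the same in the 3 MCD livers, at -0.05, -0.01 and 0.06, and all of them lay above the other groups, which ranged from -2.59 to -1.40 in MCS and from -1.72 to -0.57 in HGPP. In contrast, the mean for Itgal per Ptprc was 1.60 ± 0.57 in MCS, 0.92 ± 0.35 in MCD and 1.26 ± 0.12 in HGPP, with overlap in each pair. In all, 14 such ratios and shares were compared in 3 ways, 42 tests, and the lowest Benjamini-Hochberg adjusted p among them was 0.21.

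Markers of myeloid cells moved with the same livers. The summed FPKM of 8 markers of monocyte-derived macrophages ranged from 20.2 to 26.9 in MCS, 56.8 to 344 in MCD and 40.8 to 127 in HGPP, and 7 of the 8 rose in MCD at the adjusted p. For 6 neutrophil markers, of which Ly6g was at 0 in some livers, the sum ranged from 7.12 to 9.83 in MCS, 47.1 to 142 in MCD and 10.4 to 21.5 in HGPP. All 5 neutrophil markers that could be tested rose in MCD at the adjusted p, where 19.6% of all genes did. For dendritic cells the sum of 5 markers was 2.50 to 4.76, 8.88 to 15.2 and 4.19 to 9.67. Lower in HGPP than in MCD without overlap were 5 of 5 tested neutrophil markers, 2 of 8 macrophage markers and 1 of 5 dendritic markers. Of all genes 11.3% were, and 0 of these markers passed the adjusted p in that comparison. The part of these cells in the levels of the integrin chains was not tested.

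Promoters of 3 genes that moved together are printed next, from 250 bases before to 50 bases after the RefSeq start site (GRCm38.p6), because Itgam, Itgax and Fermt3 rose in MCD and are all used by myeloid cells. The windows are chr7:128062390-128062689 on the plus strand for Itgam, chr7:128129300-128129599 on the plus strand for Itgax and chr19:7019420-7019719 on the minus strand for Fermt3. Capitals mark the letters GAGGAA on either strand (read as TTCCTC on the other), the core of the purine box bound by PU.1, a transcription factor of myeloid and B cells.
Itgam: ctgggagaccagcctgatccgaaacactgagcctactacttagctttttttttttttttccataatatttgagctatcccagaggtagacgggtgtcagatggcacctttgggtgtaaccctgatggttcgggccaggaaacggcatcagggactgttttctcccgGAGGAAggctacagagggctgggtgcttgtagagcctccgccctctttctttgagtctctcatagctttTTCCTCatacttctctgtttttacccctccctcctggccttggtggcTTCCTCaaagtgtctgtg
Itgax: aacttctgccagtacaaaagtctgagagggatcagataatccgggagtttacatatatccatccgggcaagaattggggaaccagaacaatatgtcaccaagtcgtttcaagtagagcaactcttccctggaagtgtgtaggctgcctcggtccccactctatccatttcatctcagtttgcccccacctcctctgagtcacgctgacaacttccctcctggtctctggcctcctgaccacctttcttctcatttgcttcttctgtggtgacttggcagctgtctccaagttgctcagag
Fermt3: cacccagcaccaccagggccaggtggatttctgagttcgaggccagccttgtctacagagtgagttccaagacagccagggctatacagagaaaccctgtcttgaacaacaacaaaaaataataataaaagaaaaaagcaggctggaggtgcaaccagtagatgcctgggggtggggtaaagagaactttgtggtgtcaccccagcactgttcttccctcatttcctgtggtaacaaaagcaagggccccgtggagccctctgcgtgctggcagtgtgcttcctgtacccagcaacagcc
Itgam held 3 matches, at 84 and 15 bases before and 32 bases after the start site, and Itgax and Fermt3 held none. Of 37 members 25 had an entry in the RefSeq promoter table, with 27 windows, and 11 of these windows held the letters at least once, where 28.3% of all 32851 windows did. Only these exact letters were searched, so sites spelled otherwise would be missed, in the Itgax and Fermt3 windows as well. A match is a run of letters and was not tested for binding.

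The remaining leukocyte chains pair with each other. Itgb7, the beta chain of the gut-homing integrin, was at 1.87, 0.601 and 0.917 FPKM in MCS, 3.61, 3.67 and 6.72 in MCD and 1.54, 2.69 and 1.17 in HGPP. MCD stood above both other groups, which overlapped. The rise in MCD was 4.08-fold (log2 2.03 ± 0.40 SE, adjusted p = 0.00812 in limma), though not without the low-value filter or under quantile scaling, where the adjusted p reached 0.0722. The difference of HGPP from MCD was -1.35 ± 0.36 (unadjusted p = 0.00376, adjusted p = 0.205). Its 2 alpha partners were lower. Itga4, also the partner of Itgb1 in the VCAM-1 receptor VLA-4, was at a mean of 0.545 ± 0.0843 FPKM (SD, n = 3) in MCS, with 1.24 ± 0.346 in MCD and 0.640 ± 0.0960 in HGPP, and rose 2.04-fold in MCD (adjusted p = 0.0391). That call was lost in 11 of 17 alternatives, among them each library left out other than MCD replicate 1, with adjusted p-values up to 0.14 among these. HGPP lay below MCD in each liver for Itga4 (log2 -0.83, unadjusted p = 0.0198, adjusted p = 0.289). Itgae (CD103), found on T cells and dendritic cells of epithelia, stayed between 0.111 and 0.350 FPKM in all 9 livers and passed no test. Sums of B and T cell markers were higher in MCD as well. Over 4 B cell genes the sum was 0.673 to 1.63 in MCS, 3.92 to 17.1 in MCD and 0.928 to 1.96 in HGPP. Over 5 T cell genes it was 0.574 to 1.63, 2.02 to 5.15 and 0.824 to 1.69. Of these, 3 of 4 B cell and 2 of 5 T cell markers rose in MCD at the adjusted p, beside 19.6% of all genes. In HGPP against MCD 0 of them passed it. The part of B and T cells in the Itgb7 level was not tested.

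Fermt3 (kindlin-3, chr19:6998958-7019469, minus strand) is the kindlin of blood cells and is needed for beta2 integrins to become active. It was at 1.30, 0.775 and 0.762 FPKM in MCS, 3.52, 8.20 and 8.92 in MCD and 2.05, 3.07 and 1.51 in HGPP. No pair of groups overlapped. Fermt3 rose 6.36-fold in MCD (log2 2.67 ± 0.38 SE, adjusted p = 0.00232 in limma). It lay 2.92-fold lower in HGPP than in MCD (log2 -1.54 ± 0.39, unadjusted p = 0.00268, adjusted p = 0.188). Without MCD replicate 1 that adjusted p was 0.0092, and over all 17 alternatives it ran up to 0.7. Fermt3 was 2.18-fold higher in HGPP than in MCS (adjusted p = 0.0381), but this call was lost in 10 of 17 alternatives. The adjusted p-values were 0.0774 without HGPP replicate 1, 0.126 without HGPP replicate 2, 0.111 without MCS replicate 2 and 0.107 without MCS replicate 3. Per Ptprc, Fermt3 was at a log2 ratio of 1.26 ± 0.46 in MCS, 1.44 ± 0.09 in MCD and 1.19 ± 0.16 in HGPP, so that its difference between MCD and MCS relative to this leukocyte gene was 0.19 (exact permutation test, two-sided p = 0.6, with overlap). All HGPP livers lay below all MCD livers in this ratio, with a mean difference of -0.26 and an exact two-sided permutation p of 0.1. Its gene model overlaps that of Trpt1, on the opposite strand, by 89 bases.

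Talin-1 (Tln1), the talin of most cells, was at 7.83, 11.2 and 10.5 FPKM in MCS, 16.8, 17.5 and 18.1 in MCD and 12.3, 11.96 and 8.78 in HGPP. MCD lay above both other groups. It rose 1.79-fold in MCD (log2 0.84 ± 0.21 SE, adjusted p = 0.0202 in limma). The call was lost without MCD replicate 3 (adjusted p = 0.0627), MCS replicate 1 (0.0718) or MCS replicate 3 (0.0612), and under median-of-ratios and quantile scaling. The difference between HGPP and MCD was -0.68 ± 0.21 (unadjusted p = 0.00865, adjusted p = 0.246). Its longer relative Tln2 was at a mean of 0.350 ± 0.0696 FPKM in MCS, with 0.683 ± 0.254 in MCD and 0.585 ± 0.115 in HGPP and did not pass the adjusted p.

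The other kindlins did not follow Fermt3. Fermt1 (kindlin-1), which belongs to epithelia, was at 0.167, 0.348 and 0.446 FPKM in MCS, 0.702, 1.04 and 0.589 in MCD and 1.13, 0.910 and 0.939 in HGPP. Both groups on the deficient diet lay above MCS and overlapped each other. HGPP lay above MCS by a log2 fold change of 1.44 ± 0.32 (SE, adjusted p = 0.0176 in limma, 0.0511 without HGPP replicate 1), and MCD against MCS gave 1.09 (adjusted p = 0.0609). The call in HGPP against MCS was also lost without the low-value filter and under quantile scaling. Fermt2 (kindlin-2), the kindlin of most adherent cells, was at 11.6, 17.0 and 21.5 FPKM in MCS, 14.3, 15.7 and 13.4 in MCD and 21.1, 14.3 and 15.6 in HGPP. Its log2 difference was -0.17 in MCD against MCS (95% interval -0.71 to 0.38), the only one below 0 among the tested members, and 0.22 in HGPP against MCD (-0.26 to 0.69).

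Vcam1 (VCAM-1, chr3:116109949-116129688, minus strand), which binds the VLA-4 integrin of leukocytes and is made by activated endothelium, did not follow the leukocyte chains in HGPP. It was at 1.34, 0.851 and 1.05 FPKM in MCS, 2.35, 8.39 and 4.28 in MCD and 4.85, 7.75 and 5.04 in HGPP. All 6 livers on the deficient diet lay above all 3 MCS livers, and the HGPP values fell inside the MCD range. Vcam1 rose 3.88-fold in MCD (log2 1.95 ± 0.41 SE, adjusted p = 0.0103 in limma), though not without the low-value filter or under quantile scaling, where the adjusted p reached 0.0625. It was 5.03-fold higher in HGPP than in MCS (log2 2.33 ± 0.25, adjusted p = 0.0012), and this passed in all 17 alternatives. For HGPP against MCD it gave 0.38 with a 95% interval from -0.54 to 1.30 (adjusted p = 0.703), with -0.06 without MCD replicate 1 and 0.83 without MCD replicate 2 (unadjusted p = 0.0335, adjusted p = 0.197).

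Icam1 (ICAM-1), the partner of the beta2 integrins on endothelium and on hepatocytes, was at 3.56, 2.10 and 3.48 FPKM in MCS, 5.29, 9.42 and 7.22 in MCD and 4.60, 3.49 and 4.36 in HGPP. MCD lay above both other groups, which overlapped. Icam1 rose 2.35-fold in MCD (log2 1.24 ± 0.30 SE, adjusted p = 0.0172 in limma), a call lost without MCD replicate 3 (adjusted p = 0.0578) or MCS replicate 2 (0.0659), without the low-value filter and under median-of-ratios and quantile scaling. HGPP against MCD gave -0.77 ± 0.26 (unadjusted p = 0.0141, adjusted p = 0.266), and HGPP against MCS 0.46 (95% interval -0.08 to 1.01). Its promoter window, chr9:21015690-21015989 on the plus strand (RefSeq, GRCm38.p6), is shown as that of the vascular partner of Itgb2, with the TATA box letters TATAAA in capitals, 13 bases after the listed start site.
Icam1: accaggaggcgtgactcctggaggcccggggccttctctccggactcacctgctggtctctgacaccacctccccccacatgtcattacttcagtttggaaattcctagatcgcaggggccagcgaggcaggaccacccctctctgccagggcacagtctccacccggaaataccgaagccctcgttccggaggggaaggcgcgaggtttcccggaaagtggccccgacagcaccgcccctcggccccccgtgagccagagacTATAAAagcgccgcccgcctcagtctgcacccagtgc
TATAAA was found in 13.6% of all 32851 windows and in 2 of the 27 member windows, those of Icam1 and Sele. For NF-kappaB, a transcription factor that inflammatory signals activate, a single strict 10-letter form of the consensus was searched. It was found in 4.51% of all windows and in 0 of the 27. Looser or shorter forms were not searched, so sites spelled otherwise would be missed, in the Icam1 window as well.

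Within a liver, Vcam1 and Icam1 shifted against each other. The log2 ratio of Vcam1 to Icam1 was -1.41, -1.30 and -1.73 in MCS, -1.17, -0.17 and -0.75 in MCD and 0.07, 1.15 and 0.21 in HGPP. Every HGPP liver had more Vcam1 than Icam1 FPKM and every other liver less. The means were -1.48 ± 0.22 (SD, n = 3), -0.70 ± 0.50 and 0.48 ± 0.59, and no pair of groups overlapped (exact permutation test, two-sided p = 0.1 in each comparison, the smallest possible). Leaving out any 1 liver, the difference between HGPP and MCD stayed between 0.84 and 1.44.

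Icam2 (ICAM-2), present on resting endothelium and platelets, was at 1.03, 0.975 and 0.526 FPKM in MCS, 1.78, 2.80 and 3.12 in MCD and 0.865, 1.90 and 1.41 in HGPP. MCD lay above MCS, and HGPP overlapped both. It rose 2.85-fold in MCD (log2 1.51 ± 0.34 SE, adjusted p = 0.0129 in limma), a call lost without MCD replicate 3 (adjusted p = 0.0584) or MCS replicate 3 (0.0582). The call was also lost without the low-value filter and under median-of-ratios and quantile scaling, with adjusted p-values up to 0.117. Between HGPP and MCD the difference was -0.87 ± 0.34 (unadjusted p = 0.0289, adjusted p = 0.317). Pecam1 (CD31), which joins endothelial cells and is also carried by platelets and leukocytes, was at 2.76 ± 0.772, 4.29 ± 1.16 and 4.20 ± 1.05 FPKM in MCS, MCD and HGPP and did not pass the adjusted p (log2 0.62 in MCD against MCS, adjusted p = 0.159).

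Endothelial markers were set beside these molecules. The summed FPKM of 6 vascular endothelial markers ranged from 9.51 to 12.4 in MCS, 10.7 to 23.6 in MCD and 12.7 to 21.3 in HGPP. Of the 6, 0 passed the adjusted p in any comparison. At an unadjusted p under 0.05 there were 2, 0 and 2 in MCD against MCS, HGPP against MCD and HGPP against MCS, beside 38.1%, 13.7% and 36% of all genes. For 6 sinusoidal endothelial markers the sum was 31.4 to 50.1, 36.4 to 74.0 and 50.7 to 81.7. HGPP thus lay above MCS as Vcam1 did, but only by 50.7 against 50.1. Of these 6, 1 was higher at the adjusted p in MCD and 2 in HGPP against MCS, beside 19.6% and 16.4% of all genes. For 6 stellate cell markers the sum was 24.7 to 29.6, 28.1 to 74.0 and 37.9 to 55.1, with 1 and 3 of 6 higher, beside the same shares. The part of these cells in the Vcam1 level was not tested. Relative to Cdh5, the cadherin of endothelial junctions, the log2 ratio of Vcam1 was -1.67 ± 0.27 (SD, n = 3) in MCS, -0.26 ± 0.27 in MCD and 0.14 ± 0.32 in HGPP. Both groups on the deficient diet lay above MCS without overlap and overlapped each other (exact permutation test, two-sided p = 0.1, 0.1 and 0.2 for HGPP against MCD). Icam2 per Cdh5 was higher in MCD (-1.07 ± 0.42) than in MCS (-2.06 ± 0.35) and in HGPP (-1.98 ± 0.15), without overlap in either case. Pecam1 per Cdh5 was -0.33 ± 0.36 in MCS, -0.33 ± 0.30 in MCD and -0.35 ± 0.13 in HGPP (exact permutation test, two-sided p = 1 in each comparison). Kupffer cells also make Vcam1 in mice, and the sum of 6 Kupffer cell markers ranged from 35.9 to 134 in MCS, 91.8 to 393 in MCD and 123 to 207 in HGPP; their part in the Vcam1 level was not tested either.

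**Figure D4:**
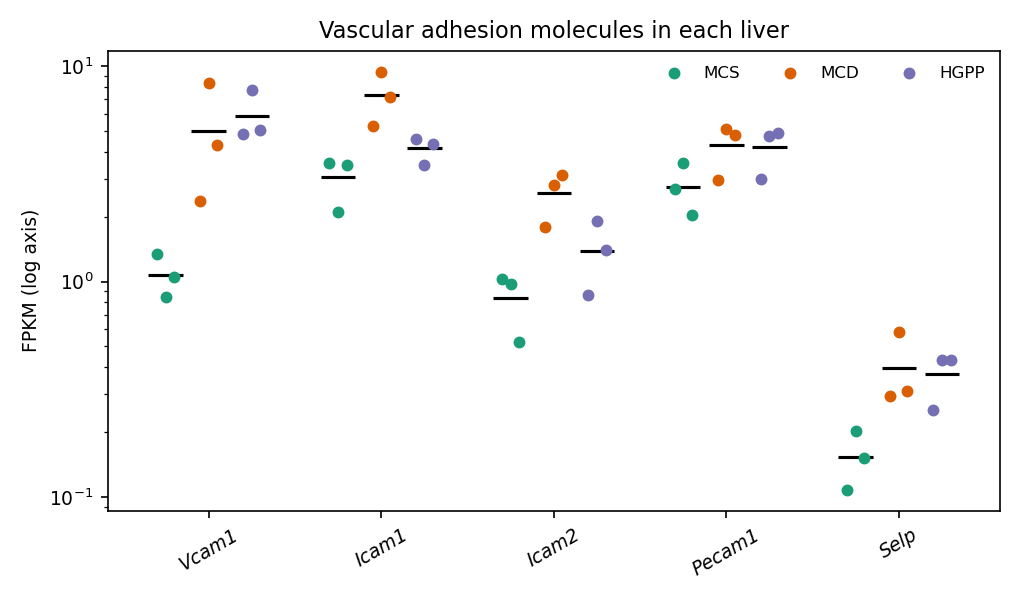
Points give the FPKM of 1 liver each on a log axis for Vcam1, Icam1, Icam2, Pecam1 and Selp, and black bars give the mean of the 3 livers of a group. For Vcam1 the HGPP points (4.85 to 7.75) lie inside the span of MCD, while for Icam1 they (3.49 to 4.60) lie below all MCD points.

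The selectin system was present at low levels on the vascular side. Selplg (PSGL-1, chr5:113818536-113832644, minus strand), the leukocyte ligand of P-selectin, was at 1.06, 0.629 and 0.407 FPKM in MCS, 1.41, 5.07 and 5.44 in MCD and 1.03, 2.43 and 1.28 in HGPP. MCD lay above MCS, and the lowest MCD liver, replicate 1, lay among those of HGPP. It rose 4.65-fold in MCD (log2 2.22 ± 0.51 SE, adjusted p = 0.014 in limma), a call lost without MCD replicate 3 (adjusted p = 0.0631) or MCS replicate 3 (0.0613). The call was also lost without the low-value filter and under quantile scaling, with adjusted p-values up to 0.0903. HGPP against MCD gave -1.15 ± 0.50 (unadjusted p = 0.0467, adjusted p = 0.36), which failed the study's thresholds in 10 of 17 alternatives. The adjusted p was 0.0224 without MCD replicate 1, the lowest of the 17, and ran up to 0.836. Per Ptprc, Selplg had a log2 ratio of 0.76 ± 0.65 (SD, n = 3) in MCS, 0.53 ± 0.44 in MCD and 0.67 ± 0.55 in HGPP, with overlap in every pair.

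E-selectin (Sele), which endothelium makes only when activated, was near the limit of detection. It had 0, 0 and 1 reads in MCS, 3, 19 and 15 in MCD and 6, 2 and 9 in HGPP. MCD and HGPP lay above MCS and overlapped each other. The 37 reads of MCD against 1 read of MCS gave a ratio of 44.3 per unit of depth with an exact 95% interval from 7.48 to 1798, which covers counting error only. In the limma fit it rose by a log2 fold change of 1.74 (adjusted p = 0.0229), a call lost with each library left out other than MCD replicate 1, with adjusted p-values up to 0.0857. P-selectin (Selp), stored in platelets and endothelium, was at a mean of 0.154 ± 0.0476 FPKM in MCS, with 0.397 ± 0.162 in MCD and 0.374 ± 0.103 in HGPP. All 6 livers on the deficient diet lay above MCS for Selp, with log2 differences of 0.94 (adjusted p = 0.0904) and 0.89 (adjusted p = 0.0742).

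The platelet integrin chains did not pass the adjusted p in any comparison with all livers. Itga2b (CD41), a chain of platelets and megakaryocytes, was at a mean of 0.779 ± 0.0979 FPKM in MCS, with 1.66 ± 0.714 in MCD and 1.17 ± 0.259 in HGPP (log2 0.93 in MCD against MCS, unadjusted p = 0.0185, adjusted p = 0.0688, and 0.0365 without MCD replicate 1). Its partner Itgb3, which endothelium and other cells also carry, was at 0.973 ± 0.216, 1.60 ± 0.450 and 1.77 ± 0.403 FPKM (log2 0.80 in HGPP against MCS, unadjusted p = 0.0137, adjusted p = 0.062). Both chains lay wholly above MCS in HGPP, and Itga2b also in MCD. The sum of 6 platelet and megakaryocyte markers ranged from 1.01 to 2.92 in MCS, 4.41 to 12.9 in MCD and 2.81 to 5.04 in HGPP, and among them Gp1bb was at 0 in all livers and Gp9 and Gp6 in some.

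Of the chains that bind collagen or laminin, 2 rose in MCD. Itga2, the collagen receptor chain of platelets and epithelia, rested on 4, 0 and 1 reads in MCS, 11, 18 and 19 in MCD and 6, 14 and 7 in HGPP. MCD lay above both other groups in FPKM, with its lowest liver at 0.13418 and the highest HGPP liver at 0.13398. Itga2 passed the filter on low values through its MCD livers, so this order is no result apart from the filter. Its log2 fold change in MCD was 1.22 ± 0.36 SE (adjusted p = 0.0374 in limma), and the call was lost with each library left out other than MCD replicate 1, with adjusted p-values up to 0.124. Itga6, a laminin receptor chain of epithelia and endothelium, was at 0.150, 0.203 and 0.285 FPKM in MCS, 0.485, 1.38 and 0.459 in MCD and 0.606, 0.926 and 1.02 in HGPP. Both groups on the deficient diet lay above MCS and overlapped each other. Itga6 rose 2.55-fold in MCD (log2 1.35 ± 0.43, adjusted p = 0.0472), again lost with each library left out other than MCD replicate 1 (up to 0.142), and was 3.03-fold higher in HGPP than in MCS (log2 1.60 ± 0.31, adjusted p = 0.0101), lost under quantile normalization only.

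Itga3, which pairs with Itgb1 to bind laminin, was at a mean of 1.69 ± 0.0581 FPKM in MCS, with 2.51 ± 0.422 in MCD and 3.27 ± 0.935 in HGPP, and was 1.83-fold higher in HGPP than in MCS (adjusted p = 0.0329). This was lost without MCS replicate 1 (adjusted p = 0.0606), MCS replicate 2 (0.0827), MCS replicate 3 (0.0817), HGPP replicate 2 (0.103) or HGPP replicate 3 (0.0715). Itgb4, the partner of Itga6 in epithelia, rested on low values (0.155 ± 0.0631, 0.370 ± 0.110 and 0.341 ± 0.186 FPKM) and did not pass the adjusted p, though its MCD livers lay above all MCS livers (log2 0.89, unadjusted p = 0.0348, adjusted p = 0.104). The sum of 5 bile duct markers, among them Krt19, Epcam and Spp1, ranged from 13.4 to 22.9 in MCS, 26.7 to 151 in MCD and 24.3 to 95.4 in HGPP. Spp1 is also counted among the macrophage markers. Of the 5, 2 were higher at the adjusted p in MCD and 1 in HGPP against MCS, beside 19.6% and 16.4% of all genes. The part of bile duct cells in these epithelial chains was not tested. Itga1, the collagen receptor chain of sinusoidal endothelium and stellate cells, was at 1.76 ± 0.402, 2.17 ± 0.263 and 2.08 ± 0.0649 FPKM and overlapped in every pair. Itga10 ranged from 0.204 to 1.59 FPKM and Itga7 from 1.60 to 2.34 without a difference that passed the adjusted p, and for Itga10 33.5% of the exon bases are shared with Gm42957 on the same strand.

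Itgb1, the partner of most matrix-binding alpha chains, had the highest FPKM of the members in most livers and differed little. It was at 36.98, 29.5 and 35.2 FPKM in MCS, 33.6, 54.5 and 29.1 in MCD and 38.6, 40.7 and 42.7 in HGPP. HGPP lay above MCS, and MCD spanned both. The log2 difference was 0.16 in MCD against MCS (95% interval -0.40 to 0.72), 0.27 in HGPP against MCS (-0.05 to 0.58) and 0.11 in HGPP against MCD (-0.45 to 0.67), and the first 2 of these turned below 0 under median-of-ratios scaling. Beside it Itgb2, at 2.06 ± 1.07 FPKM on average in MCS, reached 27.5 ± 17.6 in MCD, where Itgb1 was at 39.1 ± 13.6.

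In the group of chains that are widely shared or bind the RGD sequence, found in fibronectin and vitronectin, 0 passed the adjusted p in MCD with all livers. Without MCD replicate 1, Itga9 (log2 1.75, against 1.09 with it, adjusted p = 0.00687) and Itgb5 (log2 0.76, against 0.53, adjusted p = 0.0378) passed. In HGPP against MCS, Itgb5 was 1.59-fold higher (20.5 ± 1.08 FPKM in MCS, 30.7 ± 10.2 in MCD, 32.7 ± 4.21 in HGPP; adjusted p = 0.0156, and 0.0607 without MCS replicate 2). This call was also lost under median-of-ratios and quantile scaling and in one fit over 9 libraries. Itga9, which binds tenascin and osteopontin, was 2.06-fold higher (0.948 ± 0.275, 2.59 ± 1.88 and 2.09 ± 0.702 FPKM; adjusted p = 0.0453), and lost this call without MCS replicate 2 (0.136), MCS replicate 3 (0.11), HGPP replicate 2 (0.151) or HGPP replicate 3 (0.107). Itga5, the fibronectin receptor chain, was at a mean of 6.70 ± 0.729 FPKM in MCS, with 9.63 ± 0.948 in MCD and 7.14 ± 0.775 in HGPP. All 3 MCD livers lay above both other groups, but no comparison of Itga5 passed the adjusted p (log2 0.52 in MCD against MCS, adjusted p = 0.0969). Itgav was at 1.66 ± 0.249, 2.48 ± 1.08 and 2.40 ± 0.396 FPKM and Itga8 at 0.511 ± 0.148, 0.890 ± 0.266 and 1.08 ± 0.446, and neither passed the adjusted p. Both lay wholly above MCS in HGPP, with an unadjusted p of 0.047 for Itgav and 0.0252 for Itga8. For the TGF-beta-activating partners Itgb6 and Itgb8 the highest value in any liver was 0.0288 and 0.148 FPKM, and for the collagen chain Itga11 0.160.

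**Figure D5:**
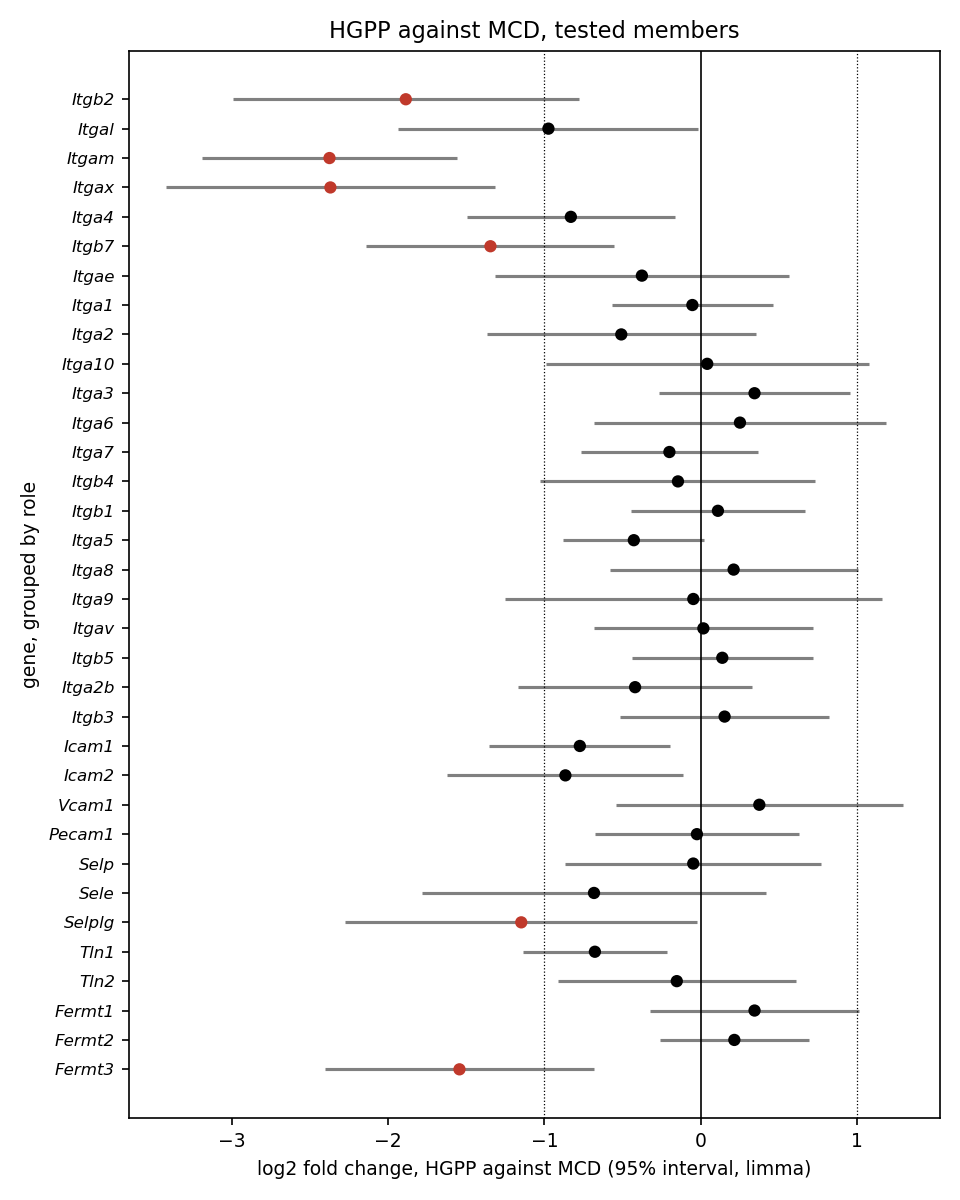
Points give the log2 fold change of HGPP against MCD for each tested member, lines its 95% interval from limma, and dotted lines a log2 fold change of 1 in either direction; the 6 members past the study's thresholds are red. These 6 lie between -2.38 and -1.15 and all are genes of blood cells, while Vcam1 lies at 0.38 and the widely shared chain Itgb1 at 0.11.

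Genes that work with the members were counted from 3 lists. Of 25 tested adaptors and kinases that act at the integrin tail, 6 rose in MCD at the adjusted p and 0 fell, where 19.6% of all tested genes rose and 2.55% fell, so the count is near that of genes in general. Apbb1ip (RIAM), which brings talin to integrins in leukocytes, rose by a log2 fold change of 2.58 (adjusted p = 0.00463 in limma), Fyb by 2.19 (0.0062), Parvg, the parvin of blood cells, by 2.08 (0.0231) and the kinase gene Src by 1.86 (0.0223). In HGPP against MCD 0 of the 25 passed, and the log2 differences were -1.35 for Apbb1ip, -1.18 for Fyb, -0.71 for Parvg and 0.22 for Src. Src spanned 0.230 to 0.612 FPKM in the MCS livers, 1.13 to 3.89 in MCD and 1.78 to 2.90 in HGPP, so its HGPP livers lay within the MCD range as those of Vcam1 did.

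Of 19 tested ligands of the matrix and plasma, 9 rose and 3 fell in MCD, beside 19.6% and 2.55% of all tested genes. Col3a1 (log2 2.80, adjusted p = 0.0044 in limma) and Col1a1 (2.79, 0.00369) encode fibrillar collagens, Mfge8 (2.26, 0.00789) a ligand of alpha-v integrins that bridges dying cells to phagocytes, and Spp1 (2.07, 0.022) osteopontin, which here also counts among the macrophage and bile duct markers. The 3 that fell, named after their values were seen, were the fibrinogen genes Fga (log2 -1.84, adjusted p = 0.00304), Fgg (-1.36, 0.00369) and Fgb (-1.20, 0.00826), made by hepatocytes and bound by Itgam with Itgb2 and by Itga2b with Itgb3. In HGPP against MCD 0 of the 19 passed.

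Among 15 tested genes of selectin ligand synthesis and of other leukocyte-endothelial contacts, 5 rose in MCD and 0 fell, again beside 19.6% and 2.55% of all genes. Cd44, a receptor of hyaluronan and selectins, rose by a log2 fold change of 2.68 (adjusted p = 0.00426 in limma). The sialyltransferase gene St3gal4 (log2 -0.54, adjusted p = 0.0703) and Cdh5 (0.63, 0.182) did not pass the adjusted p in MCD. In HGPP against MCD 0 of the 15 passed the adjusted p.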

How the data were processed

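RNA sequencing of 9 mouse livers was used, 3 each from MCS, MCD and HGPP. FPKM values of 21936 genes, as deposited, were the only measurement. Cutadapt, HTSeq and DESeq are named in the study's methods, whereas featureCounts 2.0.0, STAR 2.7.7a and fastp 0.20.1 appear in the submitters' processing notes. Neither the tools behind the values nor their genome build could be settled from these sources. With exon lengths of GENCODE vM21 (GRCm38), 98.13% of 115793 values of up to 1000 reads came out whole within 0.02 reads, and depths, read numbers and coordinates rest on these models. In the shallowest library an FPKM of 0.1 stood for 1.15 reads per kb, so low values rest on single reads.

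Pairwise comparisons used log2(FPKM + 0.1) in limma 3.58.1 (trended eBayes after lmFit, R 4.3.3), for genes at 0.1 FPKM or more in 3 libraries, with a threshold of 0.05 after Benjamini-Hochberg adjustment. Ratios within a liver were compared by exact permutation tests, two-sided, with no pseudocount; 3 of the 14 ratios were planned and 11 were added after the values were seen. Values in every liver are given for up to 4 members of each role past the adjusted p in MCD against MCS, for members past the study's thresholds in HGPP against MCD and for members that went against their role; other genes come from the context lists, up to 4 each by fold change among those at 1 FPKM or more in a group. Members and lists were chosen with earlier results of these data known. Tables and promoter matches were made with Python 3.11.15 and pandas 2.3.3. The fit was first tested on simulated data, with 100 genes changed 4-fold and 100 changed 2-fold. It called 60 and 7 of these in MCD against MCS, 56 and 5 in HGPP against MCD and 68 and 24 in HGPP against MCS. Of unchanged genes it called 3, 0 and 4. The livers themselves gave 3060 calls in MCD against MCS and 2602 in HGPP against MCS. With that many calls the adjusted threshold is less strict than in this test of the fit. How many changes of these sizes would be missed in the comparisons with MCS was therefore not tested. In HGPP against MCD, with 3 calls, many would be missed. In every comparison, a member that did not pass is not shown to be unchanged. The labels used here name no batch. Histology, serum and microbiota data of the study are not analysed here. A gene of the context lists is not reported here.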

Additional observations from a re-analysis of the deposited data

How the results depend on the processing

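Each comparison was repeated with a pseudocount of 1 or 0.01, no filter on low values, a filter at 1 FPKM, TPM, median-of-ratios or quantile scaling, one fit over 9 libraries, no trend, a replicate block and each library left out, and with voom on recovered reads, chosen after seeing the data. No member that passed changed direction. Uncalled members changed sign in 18 of 569 values in MCD against MCS, 40 in HGPP against MCD and 18 in HGPP against MCS. Itgb2, Itgam, Itgax and Fermt3 kept their call in MCD against MCS in all 17 alternatives, Itgb2, Itgam, Itgax, Itgb7 and Fermt3 kept the study's thresholds in HGPP against MCD, and Itgax and Vcam1 kept their call in HGPP against MCS. With pseudocount 1 the members past the study's thresholds were 9 in MCD against MCS and 2 in HGPP against MCS. Without a filter 6 and 5 members passed the adjusted p in these comparisons, with 1795 and 1567 of all genes, and 0 genes in HGPP against MCD. Median-of-ratios scaling gave 8 and 4 members and, in HGPP against MCS, 1376 genes, and the split of higher against lower calls went from 2707 and 353 to 1231 and 1019 in MCD against MCS and from 2260 and 342 to 704 and 672 in HGPP against MCS. Quantile scaling gave 4 and 2 members at the adjusted p, 9 and 4 at the study's thresholds, and 1264 and 1183 genes (676 higher and 588 lower, 649 and 534), with 0 genes in HGPP against MCD. TPM gave 5 genes there and voom 1. One fit over 9 libraries gave 16 genes and 1 member (Itgam) in HGPP against MCD, and 1420 genes and 6 members in HGPP against MCS. The cause of these changes was not tested.

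To see whether the replicate numbers pair the livers, deviations from the group means were correlated over all tested genes. For same-numbered livers the correlations were -0.34, -0.31 and -0.26 in MCD against MCS and 0.30, 0.02 and -0.16 in HGPP against MCD. They were -0.31, -0.02 and 0.02 in HGPP against MCS. Differently numbered livers reached 0.33 in HGPP against MCD. Deviations within a group sum to 0, so these are not correlations of whole profiles, and they gave no sign of pairing. With the number as a replicate block 11, 0 and 7 members passed the adjusted p, and 1876, 14 and 1585 genes. Leaving out 1 library gave 6 to 18 members at the adjusted p and 13 to 19 at the study's thresholds in MCD against MCS (1249 to 3601 genes), 0 to 6 and 5 to 9 in HGPP against MCD (0 to 499 genes) and 5 to 10 and 7 to 12 in HGPP against MCS (1095 to 2054 genes). The low ends in MCD against MCS came without MCD replicate 3 (6 members), MCS replicate 3 (7) and MCS replicate 2 (9), and in HGPP against MCS without MCS replicate 2 (5).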
